A study of Mus musculus with 28 samples.

Results

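Wnt7b, Sp5, Axin2, Nkd1, Lef1, Tcf7l2, Lgr4 and Ctnnb1 were followed as a ligand, a receptor and a set of transducers and response genes of the Wnt pathway, 8 of the 23478 gene rows in each of the deposited count tables. Their counts were read in all 19 RNA libraries, and their names in the authors' 4 lists of regions opened or closed in ATAC-seq (chromatin accessibility), where they held 14 of 8617 regions. The cells came from mouse lung after depletion of CD45, CD16/32, Ter119, CD90.2, CD271 and CD31 and selection for CD326 (EPCAM), and were collected at postnatal day 14 after recombination at postnatal day 3. Yap active mice carried floxed Stk3 and Stk4, the Hippo kinase genes MST2 and MST1, with SftpcCreert2, a hormone-inducible Cre under a promoter of alveolar type 2 (AT2) cells (6 RNA and 3 ATAC libraries). Their controls carried the same floxed alleles without the Cre (4 and 3 libraries). Yap deleted mice carried floxed Yap with SftpcCreert2 (5 and 2 libraries), and their controls floxed Yap alone (4 and 1). The kinases restrain Yap, so losing them is meant to activate it. The Cre is driven in AT2 cells, whereas the sort keeps any EPCAM+ cell, so the libraries average targeted and untargeted epithelium. Nothing in the labels ties a library to a single mouse, so p-values measure only the spread between these libraries.

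Wnt ligands bind Frizzled and Lrp5 or Lrp6 receptors and stop the destruction complex from degrading β-catenin, which then enters the nucleus and turns on target genes with the DNA-binding TCF and LEF factors. Axin2, Nkd1 and Sp5 are widely used readouts of this pathway, and Axin2 and Nkd1 feed back to damp it. In the mouse lung, Wnt7b is an epithelial ligand needed for growth of the developing organ, and Axin2 marks a subset of AT2 cells with progenitor activity.

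The authors' list of opened regions for Yap active cells named start-site regions for several of these genes, so the sequence before the start site is shown for Sp5, Axin2, Tcf7l2 and Lef1, 4 of the members with an opened region within 1 kb of it. Each line gives the 250 bases upstream of the start site that the authors' annotation used, read 5′ to 3′ from RefSeq, build GRCm38.p6, the same genome as mm10. Capitals mark CTTTG, the core of the TCF/LEF site, on either strand (CAAAG as printed), and its longer form CTTTGAT or CTTTGAA.
Sp5, chr2:70474673-70474922, + strand: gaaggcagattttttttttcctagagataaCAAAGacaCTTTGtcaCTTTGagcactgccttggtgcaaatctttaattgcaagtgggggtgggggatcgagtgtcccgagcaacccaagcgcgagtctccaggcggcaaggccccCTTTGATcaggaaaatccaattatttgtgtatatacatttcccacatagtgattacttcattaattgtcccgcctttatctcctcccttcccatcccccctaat
Axin2, chr11:108920099-108920348, + strand: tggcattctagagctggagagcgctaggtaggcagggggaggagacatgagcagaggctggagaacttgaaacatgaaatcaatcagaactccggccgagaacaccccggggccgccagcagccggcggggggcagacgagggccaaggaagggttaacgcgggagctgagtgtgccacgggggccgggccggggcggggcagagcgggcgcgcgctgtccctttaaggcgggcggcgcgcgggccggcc
Tcf7l2, chr19:55741560-55741809, + strand: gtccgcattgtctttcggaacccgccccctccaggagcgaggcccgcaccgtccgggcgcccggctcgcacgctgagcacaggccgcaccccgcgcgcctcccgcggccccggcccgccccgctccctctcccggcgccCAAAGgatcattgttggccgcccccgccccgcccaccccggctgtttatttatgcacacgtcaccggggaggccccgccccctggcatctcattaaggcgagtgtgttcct
Lef1, chr3:131110047-131110296, + strand: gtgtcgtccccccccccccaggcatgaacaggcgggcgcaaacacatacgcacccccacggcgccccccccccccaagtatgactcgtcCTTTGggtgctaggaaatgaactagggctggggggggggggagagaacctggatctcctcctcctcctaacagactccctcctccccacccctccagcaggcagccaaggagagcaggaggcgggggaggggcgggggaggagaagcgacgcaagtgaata
The Sp5 sequence held 4 cores, and 1 of them, 104 to 98 bases before the start, was the longer CTTTGAT. Tcf7l2 and Lef1 held 1 core each and Axin2 none. Of 32851 RefSeq promoter windows of this length, 48.6% held a core and 7.48% the longer form. GGAATG, the core bound by the TEAD partners of Yap, occurred in none of these 4 windows and in 12.6% of all windows. Among the matched members it was found for Lgr4 alone, at 178 to 173 and 158 to 153 bases before the start. RefSeq sequences were matched for 7 of the 8 members, all but Wnt7b. These matches describe letters only.

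The depth per RNA library was 35.0 to 43.5 M counts for the Yap active line and 31.9 to 42.9 M for the Yap deleted line. Levels are given as counts per M (CPM) over TMM-scaled library sizes of all 19 libraries, not per length, and are compared within a gene only. AT2 markers were abundant in every group (10 genes, summed 31540 to 158142 CPM), and airway secretory markers were present too (6 genes, 3641 to 41795 CPM). Some libraries went against their labels, in some measures and not in others. Esr1, whose reads can come from the receptor part of the Cre, was counted at 2.03 CPM in active library 1 and 214 to 332 CPM in active libraries 2 to 6. It lay at 166 CPM in active control 2 and 85.4 CPM in deleted control 2, against 0.938 to 3.90 CPM in the other controls. Stk3 lay at 51.0 CPM in active library 1 and 31.5 to 35.9 CPM in the others, against 34.2 CPM in active control 4 and 52.1 to 56.6 CPM in controls 1 to 3. Yap1 lay at 77.0 to 136 CPM in Yap deleted libraries, against 116 CPM in deleted control 2 and 167 to 210.0 CPM in the other controls. Summed levels of 10 Yap target genes, Ctgf and Cyr61 among them, were 2401 CPM in active library 1, the highest of all 19 libraries, and 1108 to 1259 CPM in active libraries 2 to 6, against 1314 to 1721 CPM in active controls. So active library 1 lay above its controls, and the other active libraries lay below every one of them. The list summed to 932 to 1516 CPM in Yap deleted libraries, against 1156 to 1986 CPM in controls. The first principal component of the Yap active table (61.8% of variance) put active libraries 2 to 6 and control 4 on one side, and active library 1 and controls 1 to 3 on the other. That of the Yap deleted table (61.6%) set deleted controls 1 and 2 apart from all other libraries. The order of the sample columns in each count table follows the same split, and the labels name no batch. Results are therefore also given with a term for the side of the first component ("library set"), without active library 1 and control 2, and without deleted controls 1 and 2, all chosen after the data were seen.

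Wnt7b, the ligand, and Sp5, a zinc-finger transcription factor and Wnt target, had higher means in Yap active libraries than in controls by more than the larger SD of the 2 groups. Neither passed the test across all genes. Wnt7b held 36.4, 64.2, 69.4, 83.7, 90.8 and 68.9 CPM in Yap active libraries 1 to 6, against 32.3, 46.2, 35.6 and 46.6 CPM in controls 1 to 4. Active library 1 lay among the controls, and the other 5 lay above all of them. The means were 68.9 ± 18.8 CPM in Yap active libraries (SD, n = 6) and 40.2 ± 7.34 CPM in controls (n = 4), a log2 fold change of 0.80 ± 0.24 SE (edgeR quasi-likelihood, adjusted p = 0.366).

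Sp5 held 26.3, 49.1, 46.0, 52.2, 46.7 and 46.2 CPM in Yap active libraries, against 15.0, 20.7, 20.9 and 33.8 CPM in controls. Active library 1 again fell within the range of the controls, and the other 5 stood above all of them. Its means were 44.4 ± 9.20 CPM in Yap active libraries (SD, n = 6) and 22.6 ± 7.97 CPM in controls (n = 4), a log2 fold change of 0.99 ± 0.25 SE (edgeR, adjusted p = 0.366). In bulk cells, more RNA per cell and more cells of a type cannot be told apart.

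**Figure D1:**
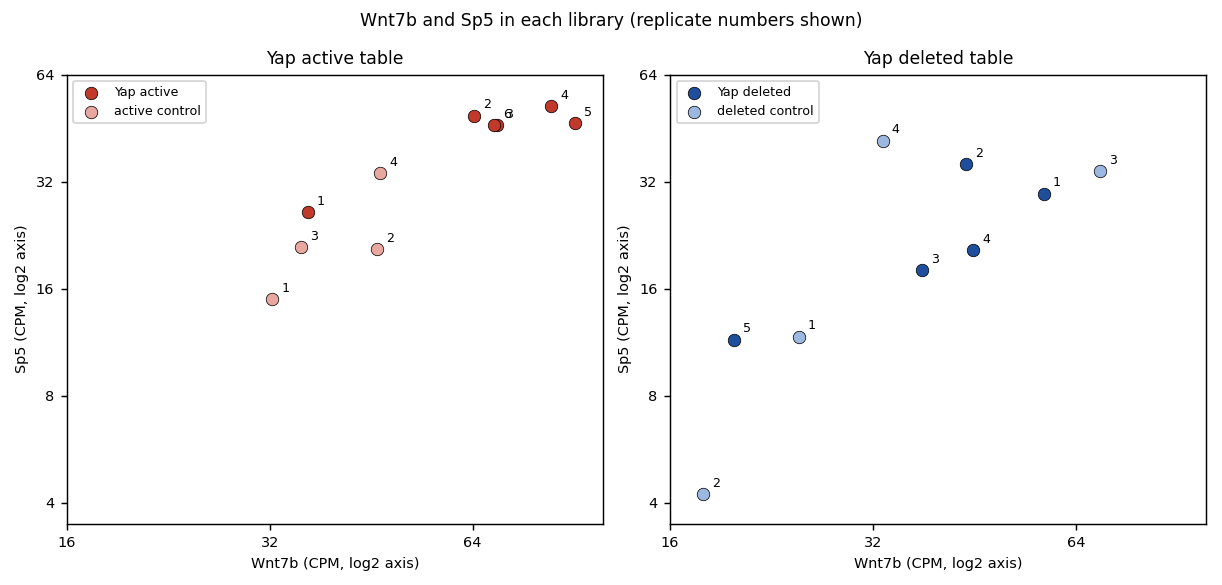
CPM of Wnt7b (x axis, log2) and Sp5 (y axis, log2), 1 point per RNA library with its replicate number, for the Yap active table (left) and the Yap deleted table (right). Active libraries 2 to 6 form the upper right group of the left panel, and active library 1 lies with the controls, while Yap deleted and control points mix in the right panel.

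How far Wnt7b and Sp5 differed depended on which libraries were set against each other. Without active library 1 and control 2, the log2 fold change was 0.996 ± 0.17 SE for Wnt7b and 1.06 ± 0.24 SE for Sp5 (edgeR, adjusted p = 0.122 for each). Both genes then had all active libraries above all controls, which 5.71% of tested genes did. Leaving out active library 1 alone gave 0.93 for Wnt7b and 1.10 for Sp5 (edgeR, adjusted p = 0.0543 for each). In that fit 5846 of 15483 tested genes had an unadjusted p under 0.05. Both fits kept active control 4, whose Stk3 level, given above, lay among those of the Yap active libraries. With each of the 10 libraries left out in turn, the values ran from 0.71 to 0.93 for Wnt7b and from 0.84 to 1.28 for Sp5. The edgeR adjusted p was lowest for both genes without active library 1, and reached 0.697 for each without control 3.

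With a term for library set, the log2 fold change of Wnt7b was 0.33 ± 0.21 SE and that of Sp5 0.49 ± 0.13 SE (edgeR, adjusted p = 1 for each). The 2 sets gave Sp5 like differences on the log2 scale, 0.50 for active libraries 2 to 6 minus control 4 and 0.49 for active library 1 minus controls 1 to 3. Wnt7b gave 0.68 in the first set and −0.04 in the second. Sp5 was thus higher than every control of its own set in both sets, as 3.2% of tested genes were. Each set has 1 library of one of its groups, so these differences carry no test of their own. The AT2, airway secretory, cell cycle, mesothelial, Yap target and targeted gene (Stk3, Stk4 and Yap1) lists each had ranges that did not overlap between the sets. The targeted genes summed to 278 to 319 CPM in active libraries 2 to 6 and 333 CPM in control 4. They summed to 397 CPM in active library 1 and 359 to 389 CPM in controls 1 to 3. Yap1, part of this sum, was not floxed in this line, and Stk3 alone, given above, split the same way. The library set therefore cannot be told apart from this summed level or from the level of Stk3. The summed AT2 markers were 97623 to 158142 CPM in active libraries 2 to 6 and 155591 CPM in control 4, against 47591 CPM in active library 1 and 52775 to 74880 CPM in controls 1 to 3. Airway secretory markers summed to 11648 to 19359 CPM in active libraries 2 to 6 and 11348 CPM in control 4, against 5294 CPM in active library 1 and 3641 to 5309.9 CPM in controls 1 to 3. Cell cycle genes (10) summed to 243 to 651 CPM in active libraries 2 to 6 and 512 CPM in control 4, against 236 CPM in active library 1 and 33.0 to 203 CPM in controls 1 to 3. Mesothelial markers (5) ran the other way, with 413 to 573 CPM in active libraries 2 to 6 and 633 CPM in control 4, against 990 CPM in active library 1 and 715 to 1157 CPM in controls 1 to 3, as did the Yap target list given above. Their part in the result was not tested.

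In the Yap deleted line both genes ranged widely and their groups overlapped. Wnt7b held 57.4, 44.0, 37.8, 45.0 and 19.9 CPM in Yap deleted libraries, against 24.8, 17.9, 69.5 and 33.1 CPM in controls. Sp5 held 29.6, 35.9, 18.0, 20.5 and 11.5 CPM in Yap deleted libraries, against 11.7, 4.24, 34.3 and 41.7 CPM in controls. For both genes the Yap deleted libraries fell inside the span of their controls. The log2 fold changes were 0.19 ± 0.41 SE for Wnt7b and 0.03 ± 0.60 SE for Sp5 (edgeR, adjusted p = 0.821 and 0.983).

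Deleted controls 1 and 2 held the lowest Sp5 values of their group. They also held the lowest summed AT2 and ciliated markers of all 19 libraries. AT2 markers summed to 34159 and 31540 CPM, against 64901 and 105935 CPM in controls 3 and 4. Ciliated markers summed to 241 and 197 CPM, against 1487 and 1051 CPM. The part of these levels in the fold changes was not tested. Without deleted controls 1 and 2 the log2 fold change of Sp5 was −0.72 ± 0.39 SE and that of Wnt7b −0.33 ± 0.41 SE (edgeR, adjusted p = 0.878 and 0.919). Whether the lines differed was tested in one fit of all 19 libraries. The Yap active fold change exceeded the Yap deleted one by 0.61 ± 0.48 SE for Wnt7b and 0.97 ± 0.66 SE for Sp5 on the log2 scale (edgeR, adjusted p = 0.822 and 0.796). Without active library 1, active control 2 and deleted controls 1 and 2, these differences were 1.31 ± 0.43 SE and 1.76 ± 0.46 SE (adjusted p = 0.195 and 0.180).

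**Figure D2:**
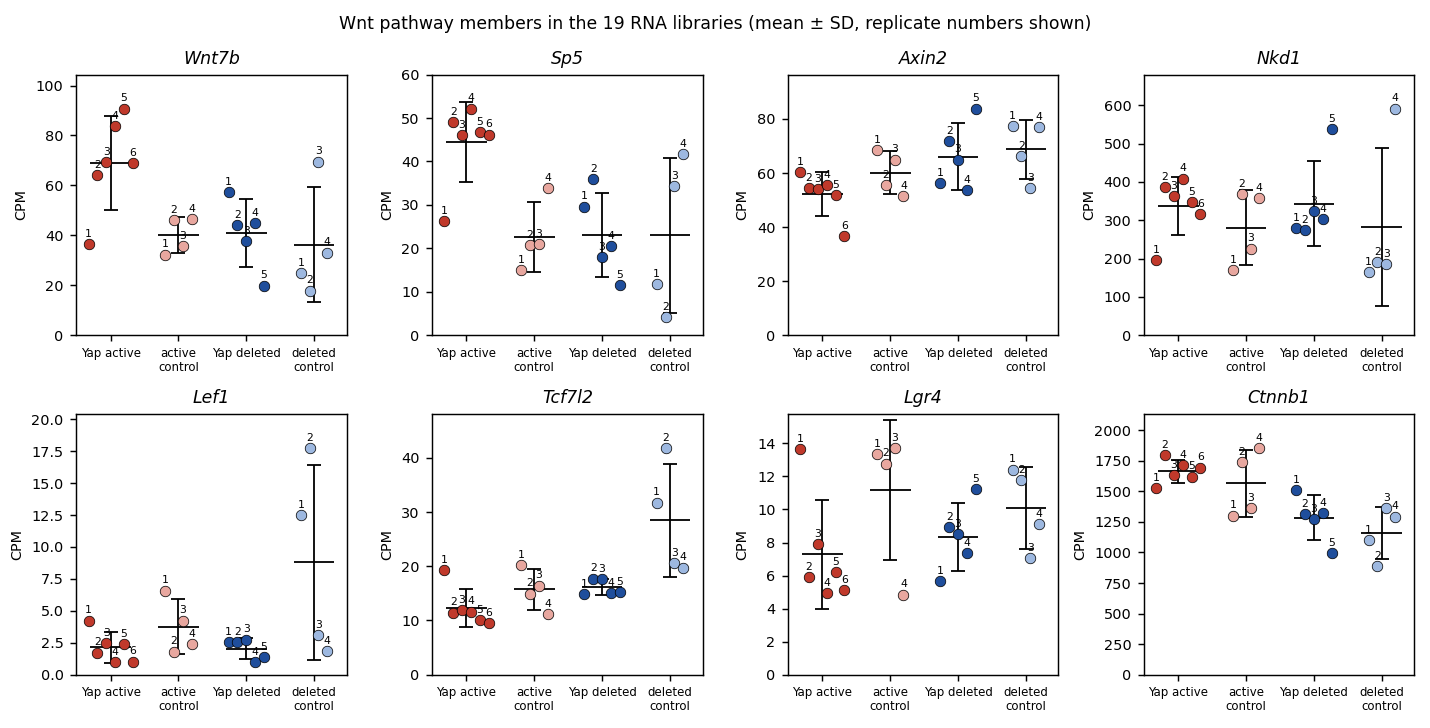
CPM (y axis, from 0) of the 8 genes in each RNA library, by group, with replicate numbers, the group mean as a long bar and ± 1 SD as whiskers (n = 6, 4, 5 and 4). Wnt7b and Sp5 are higher in active libraries 2 to 6, and Lef1 and Tcf7l2 are high in deleted controls 1 and 2.

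Lgr4, a receptor for R-spondins that raises the sensitivity of cells to Wnt, ran the other way in the Yap active line. It held 13.7, 5.89, 7.89, 4.93, 6.19 and 5.12 CPM in Yap active libraries, against 13.4, 12.8, 13.7 and 4.84 CPM in controls. Active library 1 was at the level of controls 1 to 3, and control 4 was below all active libraries. Lgr4 therefore followed the library sets, and its log2 fold change of −0.60 ± 0.35 SE (edgeR, adjusted p = 0.373) became 0.18 ± 0.19 SE with the term for library set. In the Yap deleted line it held 5.64, 8.93, 8.48, 7.34 and 11.2 CPM, against 12.4, 11.8, 7.06 and 9.13 CPM in controls (log2 fold change −0.26 ± 0.24 SE, edgeR, adjusted p = 0.594).

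Ctnnb1, which encodes β-catenin, varied least among the 8 genes. It held 1527, 1798, 1635, 1719, 1622 and 1695 CPM in Yap active libraries, against 1302, 1741, 1362 and 1858 CPM in controls. It held 1513, 1314, 1274, 1325 and 996 CPM in Yap deleted libraries, against 1104, 888, 1364 and 1293 CPM in controls. The groups of each line overlapped, and the log2 fold changes were 0.11 ± 0.15 SE in the Yap active line and 0.16 ± 0.18 SE in the Yap deleted line (edgeR, adjusted p = 0.675 and 0.660). β-catenin is controlled mainly through protein stability, which RNA does not measure.

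Of the DNA-binding partners of β-catenin, Tcf7l2 was lower in all Yap deleted libraries than in any control. It held 14.9, 17.7, 17.7, 15.1 and 15.2 CPM in Yap deleted libraries, against 31.7, 41.9, 20.6 and 19.8 CPM in controls. The highest Yap deleted value lay just under the lowest control value. Of the tested genes 1.56% had their groups apart in this direction. The log2 fold change was −0.81 ± 0.23 SE (edgeR, adjusted p = 0.247). DESeq2 called Tcf7l2, and Lef1, lower in this line, among 792 genes called (5.01% of those tested).

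Lef1 held 2.57, 2.56, 2.74, 0.945 and 1.37 CPM in Yap deleted libraries, against 12.5, 17.8, 3.08 and 1.81 CPM in controls. Controls 1 and 2 stood far above the rest, and control 4 lay below 3 of the Yap deleted libraries. The log2 fold change was −2.10 ± 0.66 SE (edgeR, adjusted p = 0.248).

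Deleted controls 1 and 2 also held endothelial RNA. The summed level of 10 endothelial markers was 217 to 293 CPM in Yap deleted libraries, against 2460 and 2069 CPM in controls 1 and 2 and 309 and 287 CPM in controls 3 and 4. Pecam1, which encodes the CD31 used for depletion, lay at 2.09 to 10.7 CPM in Yap deleted libraries, against 315, 241, 5.51 and 12.7 CPM in controls. No marker of the list was at 0 in either group. Leukocyte markers (10 genes) summed to 34.8 to 80.3 CPM in Yap deleted libraries, against 222, 732, 108 and 131 CPM in controls. The part of endothelial or leukocyte RNA in the levels of Lef1 and Tcf7l2 was not tested. Without controls 1 and 2 the log2 fold change of Lef1 was −0.27 ± 0.47 SE and that of Tcf7l2 −0.33 ± 0.12 SE (edgeR, adjusted p = 0.938 and 0.724). Tcf7l2 was still lower in every Yap deleted library than in controls 3 and 4, as were 5.55% of tested genes.

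**Figure D3:**
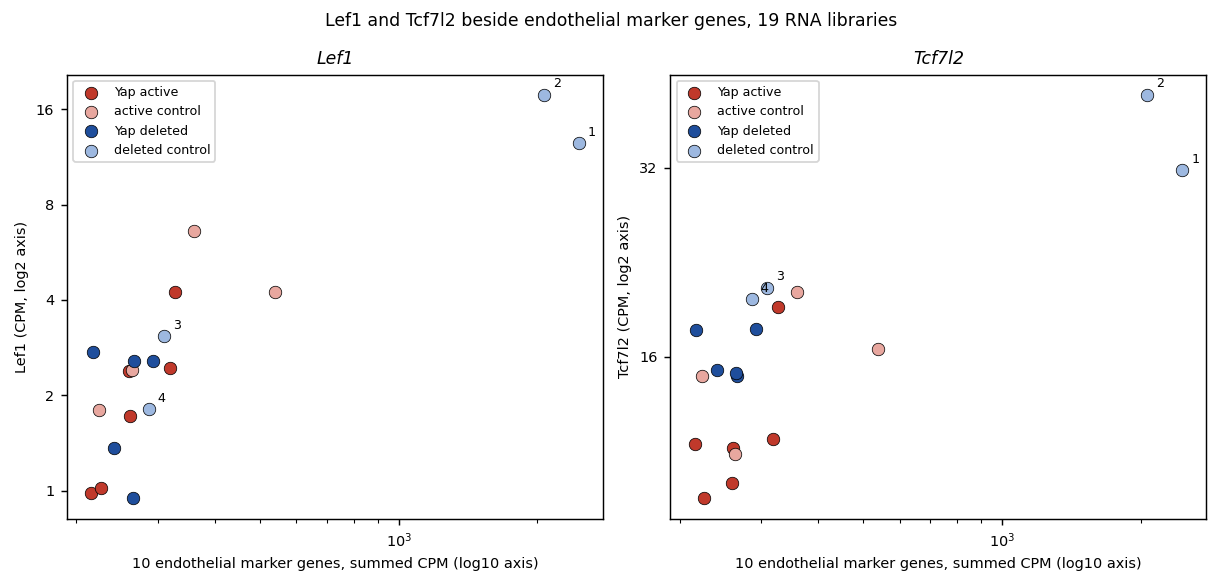
CPM of Lef1 (left) and Tcf7l2 (right), on log2 axes, against the summed CPM of 10 endothelial marker genes on a log10 axis, 1 point per RNA library, with deleted controls numbered. Deleted controls 1 and 2, at 2460 and 2069 CPM of endothelial markers, hold the highest values of both genes.

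In the Yap active line, Tcf7l2 held 19.2, 11.5, 11.8, 11.6, 10.1 and 9.51 CPM, against 20.3, 14.9, 16.4 and 11.2 CPM in controls. Lef1 held 4.22, 1.72, 2.44, 0.980, 2.38 and 1.02 CPM in Yap active libraries, against 6.59, 1.80, 4.23 and 2.41 CPM in controls. For both genes active library 1 stood near controls 1 and 3, and the groups overlapped. The log2 fold changes were −0.33 ± 0.22 SE for Tcf7l2 and −0.80 ± 0.47 SE for Lef1 (edgeR, adjusted p = 0.404 and 0.374), and 0.05 ± 0.15 SE and −0.25 ± 0.46 SE with the term for library set. Endothelial markers summed to 215 to 326 CPM in Yap active libraries, against 224 to 538 CPM in controls.

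Among the feedback genes, Axin2, a scaffold of the destruction complex, showed no shift toward higher values in the Yap active line. It held 60.2, 54.5, 54.1, 55.6, 51.9 and 36.7 CPM in Yap active libraries, against 68.3, 55.4, 65.0 and 51.4 CPM in controls. It held 56.2, 71.8, 65.0, 53.6 and 83.8 CPM in Yap deleted libraries, against 77.3, 66.4, 54.3 and 77.0 CPM in controls. The groups overlapped in both lines. The log2 fold changes were −0.18 ± 0.15 SE in the Yap active line and −0.04 ± 0.17 SE in the Yap deleted line (edgeR, adjusted p = 0.472 and 0.910).

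Nkd1, which binds Dishevelled and damps Wnt signals, varied widely within its groups. It held 196, 386, 364, 408, 347 and 315 CPM in Yap active libraries, against 169.8, 368, 226 and 358 CPM in controls. It held 279, 275, 324, 302 and 537 CPM in Yap deleted libraries, against 164, 191, 185 and 592 CPM in controls. A single Yap deleted library and a single control reached the upper range of the deleted line, and the groups overlapped in both lines. The log2 fold changes were 0.28 ± 0.26 SE in the Yap active line and 0.29 ± 0.41 SE in the Yap deleted line (edgeR, adjusted p = 0.528 and 0.721). The Yap deleted value moved with single libraries: it was 0.92 ± 0.25 SE without deleted control 4 (edgeR, adjusted p = 0.107) and 0.048 ± 0.41 SE without deleted library 5 (adjusted p = 0.958), the ends of the range over libraries left out in turn.

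**Figure D4:**
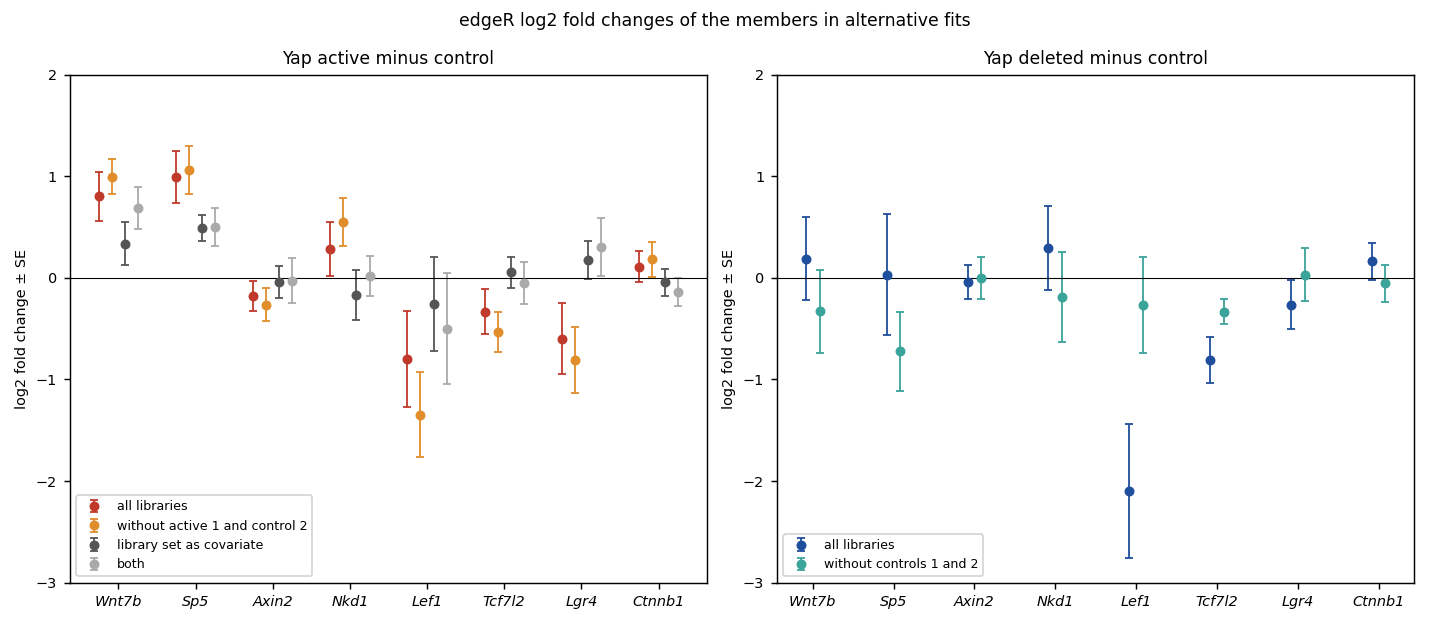
Log2 fold changes of the 8 genes (y axis, points ± 1 SE) in edgeR fits, Yap active minus control (left) and Yap deleted minus control (right), for all libraries and for fits chosen after the data were seen. Sp5 and Wnt7b stay above 0 in all 4 fits of the left panel, and the Lef1 difference of the right panel is −2.10 with all libraries and −0.27 without controls 1 and 2.

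Counted together, 0 of the 8 genes were called in the Yap active line, in the Yap deleted line or in the difference between lines at an edgeR adjusted p under 0.05. Of all tested genes edgeR called 0% in the Yap active line (0 of 15685), 0.00632% in the Yap deleted line (1 of 15818) and 0% for the difference (0 of 16308). At an unadjusted edgeR p under 0.05, Wnt7b and Sp5 passed in the Yap active line, where 12.6% of tested genes did. Lef1 and Tcf7l2 passed in the Yap deleted line, where 15.3% did, and no member passed for the difference (6.47%). Fits without active library 1 and control 2, with the library set term added to that, or without deleted controls 1 and 2 also called 0 members, where they called 0.0833%, 0.0256% and 0.00622% of tested genes. DESeq2 called 0, 2 and 0 members in the 3 comparisons, where it called 0.121%, 5.01% and 0.11% of tested genes. limma-voom with sample weights called 7, 0 and 0, all but Axin2 in the Yap active line, where it called 56.6% of tested genes. The median log2 fold change of the 8 genes was −0.04 in the Yap active line and −0.01 in the Yap deleted line, against −0.01 and 0.01 over all tested genes.

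Across the 19 libraries Lef1 spanned 18.8-fold from its lowest to its highest CPM, Sp5 12.3-fold, Wnt7b 5.08-fold, Tcf7l2 4.40-fold, Nkd1 3.60-fold, Lgr4 2.84-fold, Axin2 2.28-fold and Ctnnb1 2.09-fold. Ranked by group mean, Wnt7b ran from Yap active (68.9 CPM) through Yap deleted (40.8 ± 13.7 SD, n = 5) and Yap active controls (40.2) to Yap deleted controls (36.3 ± 23.0, n = 4). Only its first step exceeded the larger SD of the groups on either side. Sp5 likewise ran from Yap active (44.4 CPM) through Yap deleted (23.1 ± 9.67), deleted controls (23.0 ± 17.9) and active controls (22.6), and only its first step exceeded the spread. For Tcf7l2, deleted controls (28.5 ± 10.5 CPM) stood beyond the spread above Yap deleted libraries (16.1 ± 1.44), with active controls (15.7 ± 3.75) and Yap active libraries (12.3 ± 3.53) next. Ctnnb1 was higher in the Yap active table (1666 ± 92.9 CPM in Yap active libraries and 1566 ± 275 in controls) than in the other (1284 ± 186 in Yap deleted libraries and 1162 ± 213 in controls), and only the step between the tables exceeded the spread. The neighbouring group means of Axin2 (52.2 to 68.8 CPM), Nkd1 (281 to 343), Lef1 (2.04 to 8.80) and Lgr4 (7.28 to 11.2) differed by less than the spread. The libraries come in 2 separate tables, and levels across them were not tested.

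The wider pathway was read through 8 lists of 109 genes, members included, of which 95, 94 and 96 were tested in the Yap active line, the Yap deleted line and the difference. edgeR called 0 of them in each comparison, with 6 higher and 7 lower at an unadjusted p under 0.05 in the Yap active line, 8 and 7 in the Yap deleted line, and 1 and 3 for the difference, where 12.6%, 15.3% and 6.47% of all tested genes passed. DESeq2 called 1, 6 and 0, where it called 0.121%, 5.01% and 0.11% of all tested genes, and limma-voom with sample weights called 50, 0 and 0, where it called 56.6%, 0% and 0.129%. edgeR also called 0 without active library 1 and control 2, with the term for library set and without deleted controls 1 and 2. At an unadjusted p under 0.05 these fits had 8 higher and 23 lower of 96 list genes (29.4% of all tested genes passed), 4 and 2 of 95 (2.8%), and 3 and 5 of 95 (6.2%). In the Yap active line 4 of 13 measured Wnt ligands were higher and 9 lower (median log2 fold change −0.31), and all 4 R-spondins, secreted partners of Lgr4, were lower (median −1.13). Rspo2 and Rspo3 rested on few counts, at 0 to 0.953 and 0.0577 to 0.804 CPM in Yap active libraries. In controls they lay at 0.166 to 2.44 and 0.166 to 1.41 CPM. Rspo4 was also low in some libraries. It lay at 0.173 to 3.04 CPM in Yap active libraries (6 to 121 counts) and 0.387 to 7.25 CPM in controls (14 to 318 counts). Secreted antagonists were higher for 2 and lower for 7 of 9 (median −0.74), and receptors for 8 and 14 of 22 (median −0.10). The destruction complex list was higher for 10 and lower for 8 of 18 (median 0.03), nuclear effectors for 8 and 6 of 14 (median 0.05), and response genes for 9 and 10 of 19 (median −0.03). The median of all genes was −0.01. Mesenchymal markers, 10 genes of a cell type known to make R-spondins and Wnt antagonists, summed to 1298 to 8919 CPM in Yap active libraries, against 2676 to 11572 CPM in controls. Their part in these list values was not tested.

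In the Yap deleted line, ligands were higher for 5 and lower for 8 of 13 (median −0.50), receptors for 11 and 11 of 22 (median 0.01), and antagonists for 5 and 3 of 8 (median 0.09). Destruction complex genes were higher for 12 and lower for 6 of 18 (median 0.04), nuclear effectors for 8 and 6 of 14 (median 0.04), and response genes for 10 and 9 of 19 (median 0.03). The 3 secretion genes were all higher in both lines (median 0.11 in the Yap active and 0.45 in the Yap deleted line). R-spondins were split, 2 higher and 2 lower.

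In the Yap active line 3 further pathway genes had an unadjusted edgeR p under 0.01, which 1.24% of all tested genes had, and none of them passed after adjustment. Ccnd1, a cyclin of the G1 phase and reported Wnt target, held 252, 422, 365, 304, 369.7 and 448 CPM in Yap active libraries, against 206, 210.0, 239 and 237 CPM in controls. Every active library lay above every control, as did 0.478% of tested genes, and the log2 fold change was 0.71 ± 0.17 SE (edgeR, adjusted p = 0.366). Ccnd1 was the 1 list gene that DESeq2 called in this line (adjusted p = 0.0460). It gave 0.45 ± 0.16 SE with the term for library set.

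Wnt2b, a ligand, and Frzb, a secreted antagonist, had negative fold changes in the Yap active line. Wnt2b held 8.40, 5.06, 2.50, 2.83, 3.59 and 2.26 CPM, against 9.66, 14.2, 19.4 and 4.07 CPM in controls (log2 fold change −1.50 ± 0.45 SE, edgeR, adjusted p = 0.366). With the term for library set it gave −0.55 ± 0.34 SE. Frzb rested on few counts, 3 to 19 a library in the Yap active group and 14 to 45 in controls, or 0.0893 to 0.425 CPM against 0.387 to 1.03 CPM (log2 fold change −1.53 ± 0.48 SE, edgeR, adjusted p = 0.366). Both groups of either gene overlapped.

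The same rule named 4 further genes in the Yap deleted line, where 3.96% of all tested genes had such a p. All 4 had positive fold changes, and none passed after adjustment. Sfrp4, a secreted Frizzled-related antagonist at low level, held 3.17, 1.75, 3.68, 2.44 and 1.54 CPM in Yap deleted libraries, against 0.586, 0.786, 0.819 and 0.782 CPM in controls. All Yap deleted libraries exceeded all controls, as did 2.14% of tested genes (log2 fold change 1.77 ± 0.33 SE, edgeR, adjusted p = 0.247). Without controls 1 and 2 it was 1.64 ± 0.45 SE (adjusted p = 0.577). Its fold change in the Yap active line was −0.46 ± 0.43 SE, and the difference between lines was −2.24 ± 0.56 SE (edgeR, adjusted p = 0.676).

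Lrp5, a Wnt co-receptor, held 362, 367, 370.2, 493 and 511 CPM in Yap deleted libraries, against 218, 202, 271 and 351 CPM in controls (log2 fold change 0.71 ± 0.20 SE, edgeR, adjusted p = 0.247). Ror1, a receptor for non-canonical Wnt ligands, held 32.0, 30.6, 24.8, 28.0 and 24.9 CPM, against 20.4, 14.5, 16.8 and 22.3 CPM in controls (log2 fold change 0.62 ± 0.16 SE, adjusted p = 0.247). Pygo1, a co-activator of β-catenin, held 22.4, 21.4, 22.1, 27.3 and 36.2 CPM, against 14.3, 8.42, 14.4 and 20.8 CPM in controls (log2 fold change 0.86 ± 0.27 SE, adjusted p = 0.248). Each of the 3 had all Yap deleted libraries above all controls, as did 2.14% of tested genes. Control 4 came closest, with 351, 22.3 and 20.8 CPM for Lrp5, Ror1 and Pygo1. The lowest Yap deleted values were 362, 24.8 and 21.4 CPM. For Pygo1 the difference between lines was −0.99 ± 0.32 SE (edgeR, adjusted p = 0.732).

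Genes whose log2 CPM most resembled each of Wnt7b, Sp5 and Axin2 were found among 13872 genes, ranked by the lower of 2 Pearson correlations, over the 10 libraries of the Yap active table and the 9 of the Yap deleted table. For Wnt7b they were Lman2l (r = 0.92 and 0.89), 0610040J01Rik, Tmem246, Arrdc1 and Pla2g6 (0.89 and 0.88). For Sp5 they were Cblc (0.95 and 0.95), Erbb2 (0.95 and 0.93), Pcdhga10, Il17re and Foxa2 (0.95 and 0.91). For Axin2 they were Ago1 (0.87 and 0.87), Tbc1d2b, Ttc28, Mon2 and Cers6 (0.83 and 0.85). The libraries share their sets and depth, so these values describe only which genes moved alike.

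Among the members, Wnt7b and Sp5 had r = 0.91 and 0.81, which placed Sp5 at rank 116 of the 13872 genes for Wnt7b. Ctnnb1 followed Sp5 (0.69 and 0.89), and Tcf7l2 (−0.87 and −0.67) and Lgr4 (−0.86 and −0.67) ran opposite to it. Axin2 was negatively correlated with Wnt7b (−0.60 and −0.73) and positively with Lgr4 (0.69 and 0.79), which ranked 123 for Axin2. Axin2 and Sp5, both Wnt readouts, had r = −0.64 and −0.24.

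In the ATAC lists, 7 of the 8 genes were named by at least 1 of the 6017 opened regions of Yap active cells, all but Lgr4, and 25.6% of tested genes were. Sp5, Axin2, Lef1, Tcf7l2 and Ctnnb1 had such a region within 1 kb of the start site, 5 of 8 members against 16.9% of tested genes. Scores are the authors' own and rank regions within a list only. The Sp5 start site lay in the opened region chr2:70473809-70476695 (mm10), annotated as exon 1 in the 5′ UTR, with a score of 128 and rank 692 of 6017. Its 250 upstream bases, printed above, lay wholly inside the region, the CTTTGAT included.

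A region across the Tcf7l2 start, chr19:55740938-55743945, annotated as exon 1, had a score of 76.1 (rank 1637). The Axin2 region chr11:108920101-108920983, also 5′ UTR of exon 1, had a score of 51.2 (rank 2557) and covered 248 of the 250 bases shown. The Ctnnb1 region chr9:120932844-120934277, annotated as promoter, had a score of 44.0 (rank 2935). The Lef1 region chr3:131109648-131110215 scored 15.9 (rank 5509) and covered 169 of the bases shown. For Wnt7b, chr15:85582147-85583502 was centred at −1003 bp, upstream of the start, within exon 2 of a non-coding transcript, with a score of 23.1 (rank 4588).

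Further opened regions lay farther off. They were centred at −137.5 kb from the Sp5 start within an intron of a neighbouring transcript (score 49.8), 60.8 kb after the Axin2 start (32.0) and 43.4 kb after the Tcf7l2 start (24.1). Nkd1 had 1, in intron 2 and 48.5 kb after its start (11.9, rank 5924), close to the end of the list. The closed list of the Yap active line (1392 regions) named Wnt7b with a region at −13.8 kb (10.9) and Nkd1 with one in intron 2 (13.4), 2 of 8 members where 5.62% of tested genes were named. In the Yap deleted line Axin2 was named once among 532 opened regions (94.7 kb away, score 14.8), as 2.43% of tested genes were, and Sp5 once among 676 closed regions (at −155 kb, 12.3), as 2.94% were. No member had a region of the Yap deleted lists within 1 kb of its start site, where 0.436% (opened) and 0.183% (closed) of tested genes did, nor one of the Yap active closed list, where 0.198% did.

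**Figure D5:**
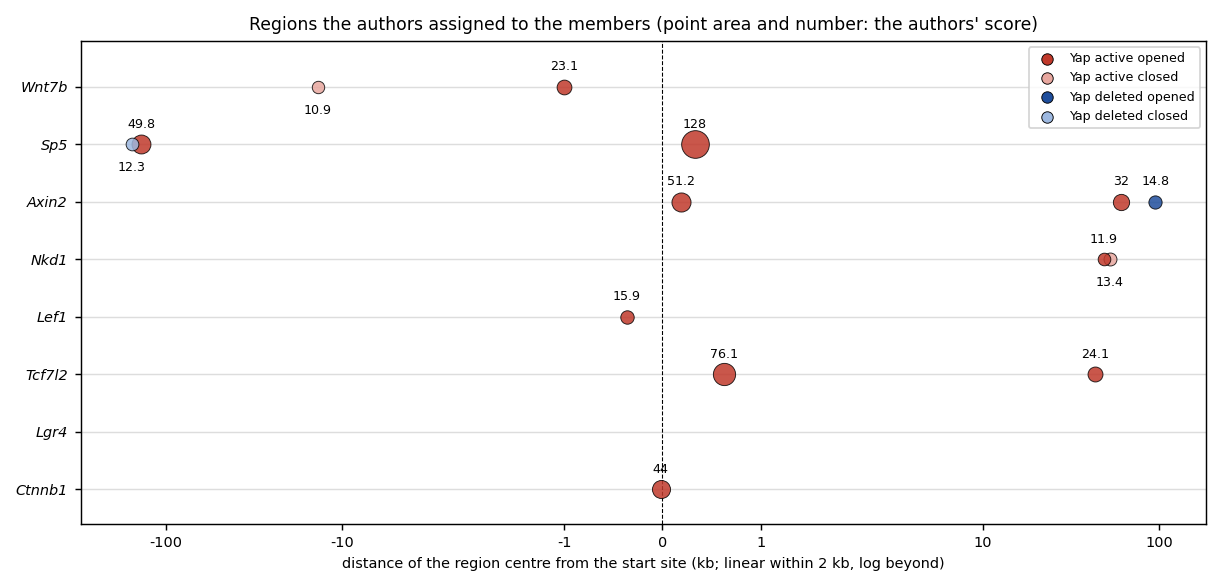
Regions that the authors assigned to the 8 genes, by distance of the region centre from the start site (x axis, kb, linear within 2 kb and logarithmic beyond) and gene (rows), with the authors' score as number and point area. Opened regions of the Yap active line lie at or within about 1 kb of the start of Wnt7b, Sp5, Axin2, Lef1, Tcf7l2 and Ctnnb1, and Lgr4 has none.

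Most of the opened regions held a peak of the authors' MACS lists. Both kinds of list rest on ATAC-seq of the same Yap active and control groups, so their overlap is not separate evidence. Of the 10 opened regions, 9 overlapped a peak of Yap active peak list 1 and 2 a peak of list 2, against 0 for control list 1 and 3 for control list 2. The lists differ in length (61739 and 53714 peaks for Yap active, 345109 and 28418 for controls), and the libraries behind each are not given in the sources used here. By −log10 q the strongest of these peaks was chr2:70474394-70474638 in the Sp5 region, with 1.18 and a fold of 3.45 over background, and no other peak under an opened region reached a −log10 q of 1. By fold it was chr2:70475092-70475210 in the same region, with 4.13 and a −log10 q of 0.834. Peaks covered 3.29% to 55.6% of the opened region they overlapped in list 1. The ATAC-seq values come as lists without replicates, so no region was tested.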

How the data were processed

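RNA-seq of 19 libraries and ATAC-seq of 9 libraries were analysed from processed files. The authors deposited whole-number read counts per gene in 1 table for each line. Trim Galore, Bowtie2, Cufflinks, DESeq, HOMER and build mm10 are named without versions, per the submitters' processing notes, and no source used here names the counting program. The authors' region lists carry a score of unstated scale and HOMER annotatePeaks.pl columns, per the file headers. The list of regions closed in the Yap active line ends in 9793 blank lines, which were dropped. The authors' deposited peak lists have MACS broad-peak columns, with fold as a ratio over background, −log10 p and −log10 q.

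The 8 genes and all lists were chosen with earlier results of these data known. Counts were filtered with filterByExpr, scaled by TMM and tested per line in edgeR 4.0.16 (R 4.3.3) by quasi-likelihood F with robust fitting and Benjamini-Hochberg adjustment over all tested genes and a threshold of 0.05. The difference between lines was fitted to all 4 groups together. SEs are the log2 fold change over the root of F. CPM values use TMM factors of all 19 libraries together. Lists added to the 8 genes are named in the text where an unadjusted p was under 0.01, and likeness was ranked among genes with a mean of at least 1 CPM in each table. Alternatives were RLE scaling, no filter, DESeq2 1.42.0, limma 3.58.1 voom with sample weights, a replicate block and each library left out. Fits chosen after the data were seen used library set, sex (Xist above 50 CPM) or fewer libraries. Replicates were checked for near-identical counts and none were, and 0 columns of sample values were left unused. Peaks were matched at an overlap of at least 1 bp. The edgeR fits were also run on simulated counts with a common dispersion and no library sets. That run therefore does not bear on the sets seen here.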

Additional observations from a re-analysis of the deposited data

Results flagged for a closer look

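Of 32 gene and group combinations, 7 had a library far from the others of its group by Dixon's ratio. For a single combination of normal values, chance flags about 1 in 20. The genes share their libraries, so the 7 flags are not independent and were not tested against that rate. Active library 1, which went against its label in Esr1 and Stk3 but held the highest summed Yap targets (2401 CPM, against 1314 to 1721 CPM in controls), accounted for 3 of them, with the lowest Sp5 (26.3 CPM, next 46.0), the highest Lgr4 (13.7 CPM, next 7.89) and the highest Tcf7l2 (19.2 CPM, next 11.8) among the 6 Yap active libraries. Active control 4 had the lowest Lgr4 of its group (4.84 CPM, next 12.8). Active library 6 had the lowest Axin2 (36.7 CPM, next 51.9). Nkd1 was far above the rest in deleted library 5 (537 CPM, next 324) and in deleted control 4 (592 CPM, next 191).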

How the results depend on the processing

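No member was called by edgeR at an adjusted p under 0.05 in any alternative run. DESeq2 called 19 genes in the Yap active line (0.121% of those tested), 792 in the Yap deleted line (5.01%) and 18 for the difference (0.11%). limma-voom called 8871 (56.6%), 0 and 21 (0.129%). Of the members, limma-voom called 7 in the Yap active line and DESeq2 called 2 in the Yap deleted line. Without active library 1 and control 2, 13 genes were called in the Yap active line, and 4 with the library set term added. The replicate numbers did not pair the samples (correlations of deviations 0.01 to 0.52 in the Yap active table and −0.26 to 0.45 in the other), and with the replicate block 0 genes were called in the Yap deleted line, as with the sex covariate. The block turned Axin2 for the difference to 0.064. Leaving out single libraries gave 0 to 2, 0 to 4 and 0 to 3 called genes.

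Directions of log2 fold changes turned as follows, and the cause was not tested. With the library set term, Nkd1 (−0.17), Tcf7l2 (0.055), Lgr4 (0.18) and Ctnnb1 (−0.044) turned, and with active library 1 and control 2 also left out, Lgr4 (0.30) and Ctnnb1 (−0.14). Without deleted controls 1 and 2, Wnt7b (−0.33), Sp5 (−0.72), Nkd1 (−0.19), Lgr4 (0.029) and Ctnnb1 (−0.055) turned. RLE scaling and DESeq2 turned Sp5 in the Yap deleted line (−0.0073 and −0.0079) and Nkd1 for the difference (0.010 each). The sex covariate turned Axin2 in that line (0.013) and Nkd1 for the difference (0.0055), and limma-voom turned Nkd1 (0.24) and Ctnnb1 (0.077) for the difference. Without those 4 libraries the difference turned for Nkd1 (0.70), Lef1 (−1.11), Tcf7l2 (−0.23) and Ctnnb1 (0.21). With single libraries left out the Yap deleted values ran from −0.034 to 0.69 for Wnt7b, −0.31 to 0.45 for Sp5, 0.048 to 0.92 for Nkd1 and −0.17 to 0.023 for Axin2, the Yap active values of Lef1 from −1.12 to −0.38, and the differences from −0.67 to 0.24 for Nkd1 and −0.14 to 0.054 for Ctnnb1.

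Of 2, 10, 1 and 1 member regions (Yap active closed and opened, Yap deleted closed and opened), 1, 8, 0 and 0 lay within 50 kb of the start site, and 1, 5, 0 and 0 were in the higher-scoring 50% of their list. Peaks covering at least 50% of an opened region, or with −log10 q of at least 1, left 1 region each for Yap active list 1 and 0 for the other 3 peak lists.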
